A study of Mus musculus with 5 samples.

Results

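The Fanconi anaemia and homologous recombination genes described here are 39 genes chosen by exact symbol, and all 39 were found among the 55291 gene symbols of each library. RNA was sequenced from bone marrow cells of mice that the labels name "mononcytes", in 2 samples with the genotype Tet2 mutant (replicates 2 and 3) and 3 wild-type samples (replicates 1, 2 and 3). Tet2 is a dioxygenase that converts methylcytosine to hydroxymethylcytosine, and its loss is common in clonal myeloid disorders. The allele, the age of the mice, any treatment, and whether each sample came from a separate animal were not stated in the sources read, so the p-values reflect only how these samples vary, which may be technical. The question put to the data was whether repair genes were lower in each Tet2-mutant library, and as far as genes of proliferating cells such as Mcm5 and Mki67.

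The Fanconi anaemia pathway removes crosslinks that tie the strands of DNA together. Its core complex is a ubiquitin ligase that marks the FANCD2 and FANCI pair at a blocked replication fork, and nucleases then cut the crosslink out. The broken chromatid is mended by homologous recombination, in which the MRE11 complex trims the end, BRCA1, PALB2 and BRCA2 prepare the trimmed strand to pair with its sister, and helicases take the joined strands apart. Inherited loss of the pathway leads to bone marrow failure in humans. Many of these genes are expressed mainly in S and G2 phase, when a sister chromatid is present as a template.

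Total counts were 17459808 and 60508381 in Tet2-mutant replicates 2 and 3, against 53789308 to 72414875 in the wild-type libraries. Values are given as CPM, counts scaled to a common library total with TMM adjustment, with replicates in number order. Every member passed the filter on low counts, and the lowest count of any member was 26, so none of the levels below rests on a handful of reads. Intervals quoted for single libraries are exact Poisson 95% intervals and cover counting error only. The transcript of Tet2 itself stood at 5.31 and 15.6 CPM in the Tet2-mutant libraries, against 11.9, 9.77 and 10.6 CPM in wild type, and was not called (log2 fold change -0.04 ± 0.58, adjusted p = 0.966, Benjamini-Hochberg, from the quasi-likelihood F-test of edgeR), so transcript level does not check the genotype label. Both Tet2-mutant libraries held the female transcript Xist (27.4 and 21.1 CPM) beside the Y-linked transcript Ddx3y (14.7 and 1.22 CPM), whereas each wild-type library was high in one of them and at 0.163 to 0.188 CPM in the other. The counts of members called, and the values of members for which the mutant libraries disagreed most, are therefore also given with 1 mutant library left out.

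Of the 39 members, 6 fell in the Tet2-mutant libraries, or 15.4%, where 4.43% of the 17062 genes tested fell. These were Fanca, Mre11a, Recql4, Chek1, Rad54b and Xrcc3, and no member rose, where 10.6% of all genes tested rose (adjusted p under 0.05, edgeR). At an unadjusted p under 0.05, 16 members were lower, where 18.6% of all genes were, and 2 were higher, where 20.5% of all genes were. The log2 fold change was negative for 32 of the 39, and its median was -0.74, against -0.07 over all genes tested. When any of the 3 wild-type libraries was left out, 0 members were called. In those fits only 6 to 18 genes in all fell (0.0371% to 0.112%) and 616 to 870 rose. The gap between the member median and the median of all genes was -1.32 without Tet2-mutant replicate 2 and -0.51 without Tet2-mutant replicate 3. Under scaling by library total alone, 15 members fell, where 16.9% of all genes did, and the median of all genes moved by -0.50 under that scaling, while the gap between the member median and the median of all genes stayed at -0.66 (-0.67 with TMM). In bulk samples such as these, fewer cells that express a gene and less of its RNA in each cell cannot be told apart.

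**Figure D1:**
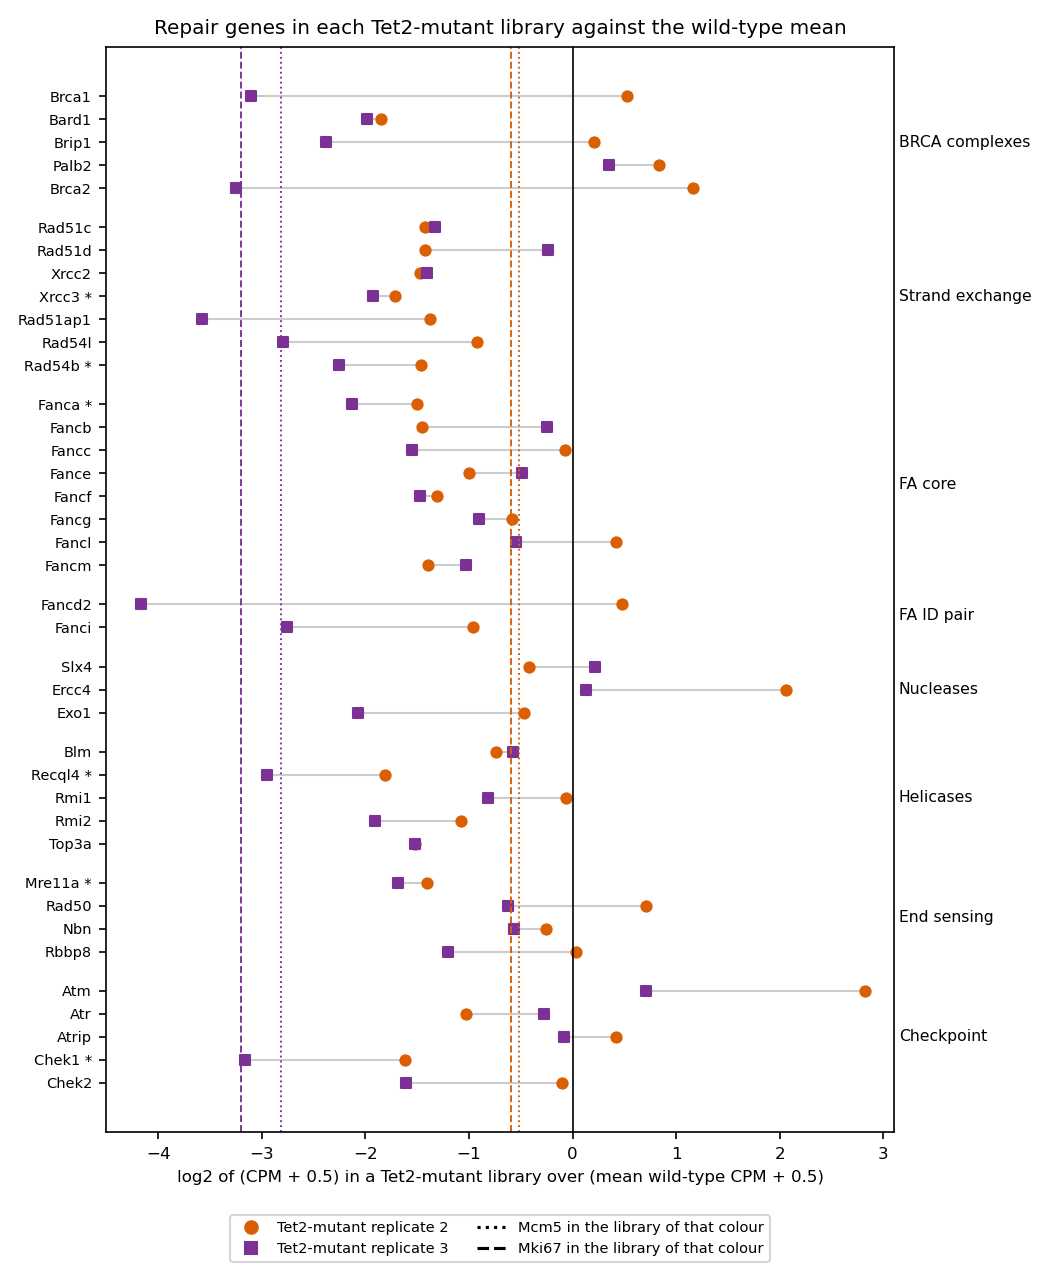
Log2 of (CPM + 0.5) in each Tet2-mutant library over (mean wild-type CPM + 0.5) for the 39 members, grouped by role; circles are Tet2-mutant replicate 2, squares are replicate 3, and an asterisk marks the 6 members that fell in the fit over both. Vertical lines give Mcm5 (dotted) and Mki67 (dashed) in the library of the same colour: 22 members lie left of Mcm5 in replicate 2, where it stood at -0.52, and 6 do in replicate 3, where it stood at -2.82.

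The 6 genes that fell act at different steps of the pathway. Fanca, a scaffold subunit of the core complex, had 12.1 and 7.68 CPM in the Tet2-mutant libraries, against 41.7, 31.0 and 33.1 CPM in wild type. Mre11a, the nuclease of the complex that senses and trims broken ends, had 13.1 and 10.7 CPM in the mutant libraries, against 32.8, 36.6 and 37.3 CPM in wild type. No mutant value of either gene came near a wild-type one, and the mutant libraries were closer to each other for Mre11a than for Fanca. The log2 fold change was -1.84 ± 0.40 for Fanca (SE, adjusted p = 0.0302) and -1.58 ± 0.34 for Mre11a (adjusted p = 0.0307, edgeR).

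Recql4, a RecQ helicase that also takes part in the start of replication, had 4.20 and 1.64 CPM in the mutant libraries, against 16.5, 14.6 and 16.97 CPM in wild type. Chek1, the kinase that ATR activates at stalled forks, had 10.3 and 3.21 CPM in the mutant libraries, against 27.6, 34.9 and 35.5 CPM in wild type. For both genes the groups did not overlap, and replicate 3 was the lower of the 2 mutant libraries. The log2 fold changes were -2.48 ± 0.61 for Recql4 (adjusted p = 0.0410) and -2.29 ± 0.57 for Chek1 (adjusted p = 0.0417, edgeR).

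Rad54b, a motor protein of the RAD54 family, had 7.13 and 3.89 CPM in the mutant libraries, against 19.3, 20.2 and 22.2 CPM in wild type. Xrcc3, a strand exchange factor, had 3.96 and 3.34 CPM in the mutant libraries, against 15.6, 11.3 and 15.4 CPM in wild type. The groups again did not overlap, and the mutant values of Xrcc3 lay closer together than those of Rad54b. The log2 fold changes were -1.91 ± 0.48 for Rad54b (adjusted p = 0.0421) and -1.95 ± 0.52 for Xrcc3 (adjusted p = 0.0476, edgeR). Exons of Rad54b share 35.9% of their length with other genes, among them Fsbp on the same strand, and those of Fanca share 10.5% with Zfp276 and those of Recql4 share 9.72% with Mfsd3 (GENCODE M21, GRCm38). The strand setting of the counts is unknown, so reads from these stretches cannot be assigned to one gene with certainty, whereas the overlap is 2.60% for Mre11a, 0.436% for Xrcc3 and 0% for Chek1.

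In GRCm38 the 6 genes lie apart from each other: Fanca on chromosome 8 (123268300 to 123318576), Mre11a (14784654 to 14837123) and Chek1 (36708482 to 36727065) on chromosome 9, Recql4 on chromosome 15 (76703553 to 76710548), Rad54b on chromosome 4 (11558922 to 11615805) and Xrcc3 on chromosome 12 (111803192 to 111813873). The promoters of 4 of them are shown because members that fell together can be compared by the sequence before their start sites. Each runs from 250 bases before to 50 bases after the start (RefSeq, GRCm38.p6), on the strand of the gene, at chr8:123318527-123318826 (minus) for Fanca, chr9:14784404-14784703 (plus) for Mre11a, chr9:36726609-36726908 (minus) for Chek1 and chr12:111813830-111814129 (minus) for Xrcc3. Capitals mark the letters CCAAT, or ATTGG where the match is on the other strand.
Fanca: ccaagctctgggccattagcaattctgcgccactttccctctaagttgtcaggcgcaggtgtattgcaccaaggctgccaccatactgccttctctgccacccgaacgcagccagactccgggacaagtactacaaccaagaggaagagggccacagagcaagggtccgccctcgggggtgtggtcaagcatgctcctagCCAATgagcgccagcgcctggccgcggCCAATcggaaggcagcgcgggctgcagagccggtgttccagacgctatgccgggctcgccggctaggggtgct
Mre11a: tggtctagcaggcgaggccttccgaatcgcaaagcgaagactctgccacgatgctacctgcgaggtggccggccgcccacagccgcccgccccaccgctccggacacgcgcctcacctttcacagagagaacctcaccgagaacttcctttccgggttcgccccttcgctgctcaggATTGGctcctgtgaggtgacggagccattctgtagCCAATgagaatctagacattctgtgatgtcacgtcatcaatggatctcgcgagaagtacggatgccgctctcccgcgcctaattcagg
Chek1: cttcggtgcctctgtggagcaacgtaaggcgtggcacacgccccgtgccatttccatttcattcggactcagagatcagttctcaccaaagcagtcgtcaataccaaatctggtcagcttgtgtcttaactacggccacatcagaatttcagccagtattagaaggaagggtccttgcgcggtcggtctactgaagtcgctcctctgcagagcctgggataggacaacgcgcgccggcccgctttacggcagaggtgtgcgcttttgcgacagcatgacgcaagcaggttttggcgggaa
Xrcc3: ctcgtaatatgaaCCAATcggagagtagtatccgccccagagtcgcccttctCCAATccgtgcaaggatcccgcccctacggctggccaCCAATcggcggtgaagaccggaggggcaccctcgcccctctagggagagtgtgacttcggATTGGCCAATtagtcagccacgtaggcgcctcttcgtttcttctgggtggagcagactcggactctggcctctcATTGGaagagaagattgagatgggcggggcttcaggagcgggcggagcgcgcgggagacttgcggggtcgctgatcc
The window of Xrcc3 holds 6 matches, 4 as CCAAT and 2 as ATTGG, those of Fanca and Mre11a hold 2 each, and that of Chek1 holds 0.

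A window was found for 28 of the 39 members, and 20 of the 28 (71.4%) hold CCAAT on either strand. So do 37.4% of all 32851 RefSeq windows and 33 of the 48 replication and mitosis genes with a window. Members and these 48 genes were counted by gene, with a match in any of its windows, whereas the share of all windows is per window. The letters of CCAAT bind the factor NF-Y, and the other motifs searched, also on both strands, were those of E2F (TTTCCCGC, TTTGGCGC, TTTGCCGC, TTTCGCGC), of the cell cycle homology region (TTTGAA) and of NRF1 (its palindromic consensus). An E2F match was found for 6 of the 28 (21.4%), in 2.26% of all windows and for 15 of the 48 replication and mitosis genes. The 6 members are Bard1, Brca2, Chek2, Fancg, Rad51c and Rmi1, none of them among the 4 genes that fell and have a window, and their median log2 fold change was -0.72, against -0.71 for the 22 members with no E2F match. The TTTGAA letters were found for 1 member, Bard1 (3.57%), in 17.9% of all windows and for 19 of the 48 replication and mitosis genes. NRF1 letters were found for 0 members, for 0 of the 48 genes and in 0.971% of all windows. No exact match to motif letters other than CCAAT lies in the 4 windows printed. Only exact matches wholly inside a window were counted, so near matches and those cut by its edge were missed. The window of Chek1 ends in gcgggaa, which is TTTCCCGC on the other strand but for 1 letter past the edge. A match in letters is a description of the window and not evidence of binding.

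Members of the BRCA complexes, which act on resected ends, gave wide contrasts between the mutant libraries. Brca1, a ubiquitin ligase and recombination mediator, had 42.9 and 2.99 CPM in the mutant libraries, against 29.2, 28.7 and 30.9 CPM in wild type. Brca2, a mediator of strand exchange, had 30.7 and 0.960 CPM in the mutant libraries, against 13.3, 12.3 and 14.5 CPM in wild type. In both cases replicate 2 lay above every wild-type library and replicate 3 below every one. With library totals in place of TMM this held for Brca2, while for Brca1 both mutant libraries lay below wild type (31.0 and 2.68 CPM in the mutant libraries, against 34.0, 33.3 and 35.2 CPM in wild type). With TMM the mutant libraries differed from each other 14.4-fold for Brca1 and 31.9-fold for Brca2. The Poisson intervals in replicate 3, 2.55 to 3.49 CPM for Brca1 and 0.717 to 1.26 CPM for Brca2, put that gap beyond counting error. Neither gene was called over both libraries (Brca1 -0.38 ± 0.89, adjusted p = 0.769, and Brca2 0.23 ± 1.08, adjusted p = 0.886, edgeR). The value for Brca2 turned to -3.80 without Tet2-mutant replicate 2 (adjusted p = 0.000643), where that for Brca1 was -3.31 (adjusted p = 0.000498), and without Tet2-mutant replicate 3 they were 1.19 (adjusted p = 0.0103) and 0.53 (adjusted p = 0.0877, edgeR). Over both libraries the value for Brca2 was negative (-0.43) under scaling by library total.

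Brip1, a helicase that binds BRCA1, showed the same placement as Brca1, with 22.7 and 3.38 CPM in the mutant libraries, against 19.7, 18.4 and 20.9 CPM in wild type, and with library totals both mutant libraries were again below wild type. Bard1, the partner that BRCA1 needs for its ligase activity, had 2.06 and 1.83 CPM in the mutant libraries, against 7.46, 8.53 and 10.1 CPM in wild type, and the groups did not overlap (-2.16 ± 0.61, adjusted p = 0.0536, edgeR). Palb2, the bridge between BRCA1 and BRCA2, had 32.3 and 23.1 CPM in the mutant libraries, against 16.8, 17.01 and 20.1 CPM in wild type, so that both mutant values exceeded the highest wild-type one (0.62 ± 0.35, adjusted p = 0.220, edgeR). With library totals replicate 3 lay within the wild-type range (20.7 CPM, against 19.7 to 22.8 CPM in wild type).

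**Figure D2:**
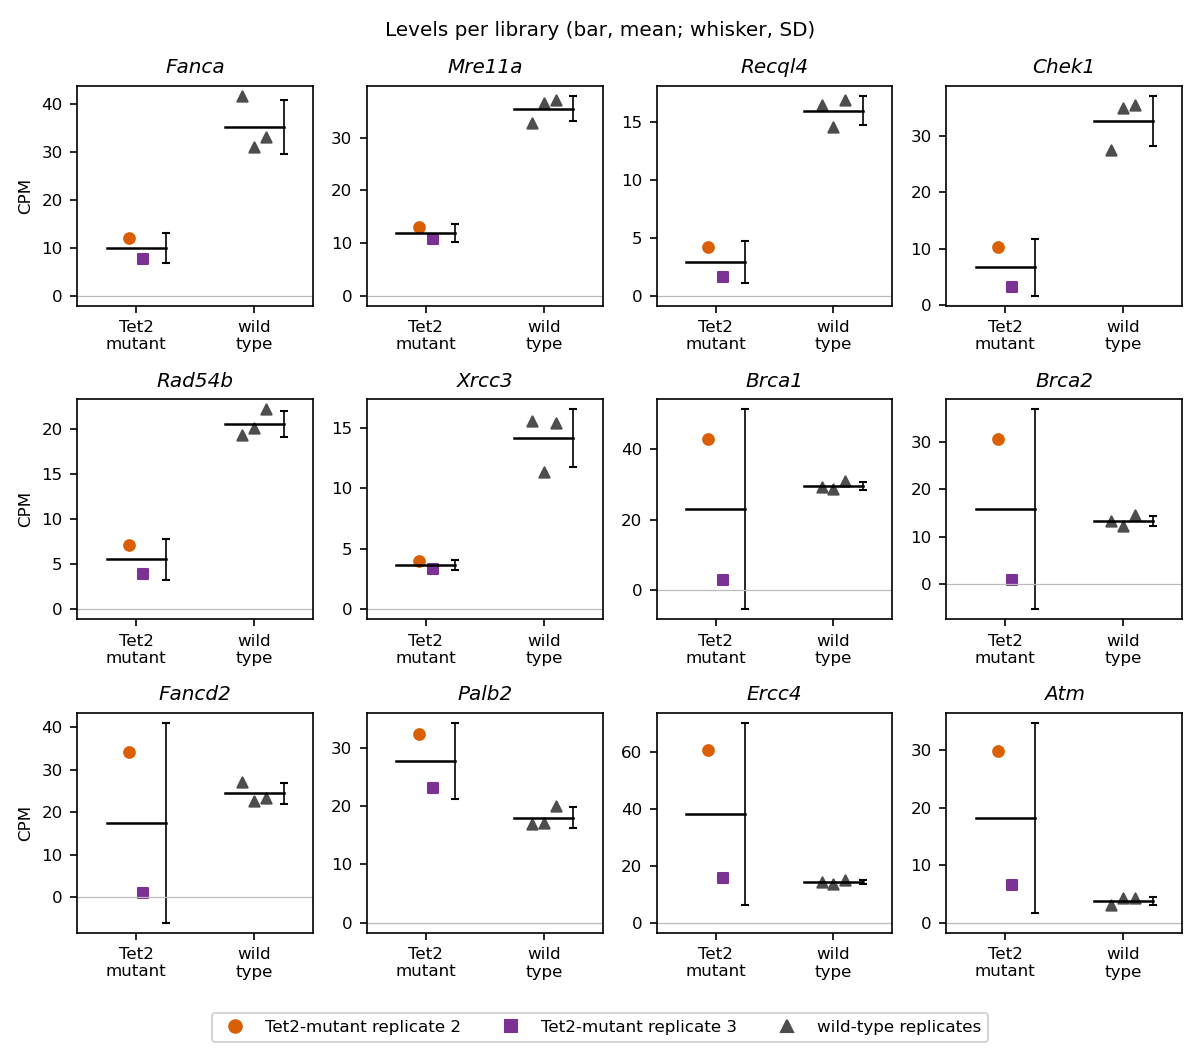
CPM per library for 12 members, Tet2-mutant libraries on the left and wild-type libraries on the right of each panel; points are libraries, bars are means and whiskers are the SD (n = 2 and n = 3). For the 6 genes that fell, from Fanca to Xrcc3, both mutant points lie under the wild-type points. For Brca1, Brca2 and Fancd2 the mutant points lie on either side of the wild-type points (34.1 and 0.886 CPM in the Tet2-mutant libraries for Fancd2). For Palb2, Ercc4 and Atm they lie above the wild-type points. This holds with TMM scaling; with library totals both mutant points of Brca1 and Fancd2 lie below wild type, and of these last 3 genes Atm alone is above it in both.

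All 7 strand exchange members were lower in both mutant libraries than in every wild-type library, as were 33.3% of all genes tested. For Rad51d this was within counting error in replicate 3 (15.4 CPM, interval 14.4 to 16.5 CPM, against a lowest wild-type value of 15.5 CPM). Of the 7, 2 fell, Rad54b and Xrcc3. Rad54l, the motor protein that helps a strand invade its template, had 57.0 and 15.2 CPM in the mutant libraries, against 92.7, 113 and 120 CPM in wild type (-1.59 ± 0.54, adjusted p = 0.0779). Its exons overlap Lrrc41 over 15.4% of their length. Rad51c, which acts in a complex with XRCC3, had 2.61 and 2.82 CPM in the mutant libraries, against 5.78, 7.62 and 10.2 CPM in wild type (-1.53 ± 0.62, adjusted p = 0.116). The mutant libraries were close to each other for Rad51c and apart for Rad54l. Rad51ap1, which stimulates strand pairing, stood at 33.7 and 6.94 CPM in the mutant libraries, against 72.8 to 96.8 CPM in wild type (-2.13 ± 0.64, adjusted p = 0.0609). The related genes Xrcc2 (-1.54, adjusted p = 0.0757) and Rad51d (-0.73, adjusted p = 0.311, edgeR) complete the group, whose median log2 fold change was -1.59.

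Of the 8 core complex members, 6 were lower in both mutant libraries than in every wild-type library (33.3% of all genes tested). Among the 8, 1 fell, Fanca. Fancm, the translocase that anchors the complex to DNA, had 2.54 and 3.41 CPM in the mutant libraries, against 7.76, 7.13 and 7.56 CPM in wild type (-1.32 ± 0.59, adjusted p = 0.141). The wild-type values were tight, and both mutant values were under the lowest of them. The subunits Fancf (-1.46, adjusted p = 0.0689), Fancg (-0.75, adjusted p = 0.115), Fancb (-0.75, adjusted p = 0.334) and Fance (-0.74, adjusted p = 0.212) also lay below wild type in both libraries. Fancl, the catalytic subunit of the ligase, did not, with 43.5 and 22.1 CPM in the mutant libraries, against 24.6, 36.7 and 36.1 CPM in wild type (0.01, adjusted p = 0.983), and Fancc, whose mutant values overlapped wild type with TMM, stood at -0.66 (adjusted p = 0.369, edgeR). For Fancb the interval in replicate 3, 9.85 to 11.6 CPM, included the lowest wild-type value, 10.9 CPM. Exons overlapped other genes over 18.6% of their length for Fancc, 15.0% for Fancf and 13.7% for Fancl.

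The 2 substrates of the core complex differed from each other. Fancd2 had 34.1 and 0.886 CPM in the mutant libraries, against 27.2, 22.8 and 23.3 CPM in wild type. This 38.5-fold gap between the mutant libraries rests on 431 and 48 counts, and the interval in replicate 3 was 0.653 to 1.17 CPM. Fanci, its binding partner, had 12.3 and 3.19 CPM in the mutant libraries, against 30.4, 20.8 and 22.1 CPM in wild type. Fancd2 thus lay above wild type in replicate 2 and below it in replicate 3 with TMM, but below it in both with library totals (24.7 and 0.793 CPM in the mutant libraries, against 31.7, 26.4 and 26.6 CPM in wild type). Fanci lay below wild type in both under either scaling. Neither was called (Fancd2 -0.49 ± 1.11, adjusted p = 0.759, and Fanci -1.67 ± 0.63, adjusted p = 0.100, edgeR), and 16% of the exon length of Fanci overlaps Polg. Without Tet2-mutant replicate 2 the value for Fancd2 was -4.78 (adjusted p = 0.000389), and without Tet2-mutant replicate 3 it was 0.48 (adjusted p = 0.142, edgeR).

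Among the nucleases, Ercc4, the catalytic subunit of the XPF-ERCC1 enzyme that unhooks crosslinks, had 60.7 and 15.5 CPM in the mutant libraries, against 14.3, 13.4 and 14.8 CPM in wild type. Replicate 2 stood far above wild type and replicate 3 just above its highest value (1.43 ± 0.55, adjusted p = 0.105). With library totals replicate 3 was below wild type (13.9 CPM, against 15.5 to 16.8 CPM in wild type), and without Tet2-mutant replicate 2 the value was 0.14 (adjusted p = 0.635, edgeR). Exo1, which resects ends over long stretches, had 25.9 and 8.20 CPM in the mutant libraries, against 28.9, 38.5 and 40.8 CPM in wild type (-1.09 ± 0.53, adjusted p = 0.163). The nuclease scaffold Slx4 overlapped wild type (-0.06, adjusted p = 0.935, edgeR).

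The 5 members that unwind or dissolve joined strands were in both mutant libraries lower than in any wild-type library (33.3% of all genes tested). Their median log2 fold change was -1.60, and Recql4 fell. Blm, the helicase mutated in Bloom syndrome, had 14.2 and 15.9 CPM in the mutant libraries, against 23.8, 20.5 and 27.4 CPM in wild type (-0.67 ± 0.36, adjusted p = 0.206). Its partner Top3a, a topoisomerase, had 5.70 and 5.72 CPM in the mutant libraries, against 21.3, 15.8 and 14.9 CPM in wild type (-1.60 ± 0.46, adjusted p = 0.0564). Both mutant libraries gave the same level of Top3a, well under wild type. The accessory subunits Rmi1 and Rmi2 stood at -0.41 (adjusted p = 0.492) and -1.61 (adjusted p = 0.120, edgeR). For Rmi1 the interval in replicate 2, 13.9 to 18.4 CPM, included the lowest wild-type value, 16.5 CPM.

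Of the members that sense and trim ends, Mre11a fell and its partners in the same complex were not called. Rad50, the ATPase that tethers ends, stood at 63.5 and 24.96 CPM in the mutant libraries, against 39.2, 38.1 and 38.6 CPM in wild type (0.19, adjusted p = 0.747), and its value turned to -0.63 without Tet2-mutant replicate 2 (adjusted p = 0.0399). Nbn, the subunit that recruits ATM, stood at 37.6 and 30.4 CPM in the mutant libraries, against 39.3, 47.5 and 48.5 CPM in wild type (-0.41, adjusted p = 0.329). The 3 subunits of one complex therefore had different profiles over the 5 libraries. Rbbp8, the MRE11 cofactor also called CtIP, stood at -0.47 (adjusted p = 0.413, edgeR).

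Of the checkpoint kinases, Atm and Atr lay on opposite sides of wild type. Atm, the kinase activated by broken ends, had 29.9 and 6.57 CPM in the mutant libraries, against 3.002, 4.22 and 4.23 CPM in wild type. Atr, its relative activated by stalled forks, had 4.12 and 7.29 CPM in the mutant libraries, against 9.57, 8.69 and 8.55 CPM in wild type. Both mutant values of Atm exceeded the wild-type range and both values of Atr lay under it, though neither gene was called (Atm 2.25 ± 0.70, adjusted p = 0.0658, and Atr -0.64 ± 0.55, adjusted p = 0.402, edgeR). Without Tet2-mutant replicate 2 the value for Atm was 0.78 (adjusted p = 0.0836), and without Tet2-mutant replicate 3 it was 2.96 (adjusted p = 0.000716, edgeR). Chek2, the kinase downstream of ATM, had 44.2 and 15.2 CPM in the mutant libraries, against 43.0, 49.2 and 50.4 CPM in wild type (-0.68 ± 0.47, adjusted p = 0.297). Atrip, the partner of ATR, overlapped wild type with TMM (0.20, adjusted p = 0.697), and 16% of its exon length overlaps Trex1.

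Per kilobase of merged exon, the members differed widely in level. In wild type the highest on this measure were Rad51ap1 (18.3 ± 2.76 CPM per kb, SD, n = 3), Nbn (17.8 ± 2.01) and Chek2 (15.8 ± 1.32). The lowest were Atm (0.369 ± 0.0682) and Atr (0.378 ± 0.0233). Whether these genes differ in level depends on the length used. Merged exons of Atr span 23629 bases and its longest transcript 8102, against 10338 and 9819 for Atm. For Rad51ap1 these lengths are 4813 and 2233 bases, and for Nbn both are 2533. In the mutant libraries Nbn stood at 14.9 and 11.99 CPM per kb and Chek2 at 14.7 and 5.07 CPM per kb, so that the 2 genes were level in replicate 2. Rad51ap1 stood at 6.996 and 1.44 CPM per kb there. Atm stood at 2.90 and 0.636 CPM per kb in the mutant libraries and Atr at 0.174 and 0.309 CPM per kb.

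Set against wild type library by library, Tet2-mutant replicate 2 was below every wild-type library for 26 of the 39 members (50.3% of all genes tested) and above every one for 10 (35.4% of all genes). Tet2-mutant replicate 3 was below every wild-type library for 34 members (49.2% of all genes) and above every one for 3 (40.7% of all genes). Both were below for 25 members, or 64.1%, where 33.3% of all genes tested were. Both were above for 3, Palb2, Ercc4 and Atm, where 22.9% of all genes were. For 6 members, Brca1, Brip1, Brca2, Fancl, Fancd2 and Rad50, replicate 2 was above and replicate 3 below, where 8.76% of all genes were so placed. Replicate 3 was the lower of the mutant libraries for 29 of the 39 (55.2% of all genes tested), and with library totals for 25 (48.1% of all genes). Among the 25 members below in both, Rad51d, Fancb, Rmi1 and Nbn had 1 mutant value whose counting interval included the lowest wild-type value. The placements also depend on the scaling. With library totals both mutant libraries were below wild type for 32 members (46.8% of all genes), both were above for 1, Atm (14.1% of all genes), and replicate 2 was above with replicate 3 below for 3, Brca2, Ercc4 and Rad50 (5.46% of all genes). With each mutant library set alone against wild type in the same test, where the lone library is assumed to vary like the wild-type libraries, 19 members fell in replicate 2 (18.4% of genes tested) and 5 rose (Palb2, Brca2, Ercc4, Rad50 and Atm, 21.0% of genes tested). In replicate 3, 27 fell (32.2% of genes tested) and 0 rose (26.5%). Of the members, 15 fell in both of these fits, where 9.45% of genes tested in both did, and 8 in neither; the fits share their wild-type libraries.

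The members were set beside 31 replication genes and 26 mitosis genes. Mcm5, a subunit of the replicative helicase, had 273.6 and 55.1 CPM in the mutant libraries, against 362, 387 and 425 CPM in wild type (-1.25 ± 0.60, adjusted p = 0.159). Mki67, a protein of the mitotic chromosome surface, had 145 and 23.5 CPM in the mutant libraries, against 187, 214 and 259 CPM in wild type (-1.39 ± 0.67, adjusted p = 0.163, edgeR). Both were below wild type in each mutant library and much lower in replicate 3, and neither was called over both libraries. Of the 57 replication and mitosis genes, 9 fell and 0 rose, where 4.43% and 10.6% of all genes tested did. The log2 fold change was negative for 56 of the 57, and the median was -1.34, against -0.74 for the repair members. Genes that fell included Cdt1, the replication licensing factor (-2.32 ± 0.39, adjusted p = 0.0138), Chaf1a, a histone chaperone (-2.54 ± 0.48, adjusted p = 0.0203), and the mitotic motor Kif20b (-1.96 ± 0.37, adjusted p = 0.0203). Without a wild-type library 1 to 2 of the 57 fell, where 0.0371% to 0.112% of all genes tested did. Without Tet2-mutant replicate 2 the log2 fold changes of Mcm5 and Mki67 were -2.83 and -3.23. Without Tet2-mutant replicate 3 they were -0.52 and -0.61.

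The order of the lists differed between the mutant libraries. In replicate 2 the median of log2 (CPM + 0.5) over wild type was -0.92 for the members, -0.69 for replication genes, -0.56 for mitosis genes and -0.24 for all genes tested. In replicate 3 it was -1.47 for the members, -2.58 for replication genes, -2.91 for mitosis genes and -0.19 for all genes. The repair members thus had a median below those of replication and mitosis genes in replicate 2 and above them in replicate 3. Of the other repair lists described below, end joining genes had a lower median than the members in replicate 2 (-1.10). Pathway partners (-0.28), mismatch repair (0.16) and excision repair (-0.62) had higher ones there. In replicate 2, 22 of the 39 members were lower, relative to wild type, than Mcm5 and 21 were lower than Mki67, whereas in replicate 3 these numbers were 6 and 3. Summed over genes, members stood at 11.3% and 20.8% of the CPM of the 57 replication and mitosis genes in mutant replicates 2 and 3, against 10.3%, 9.05% and 8.85% in wild type.

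**Figure D3:**
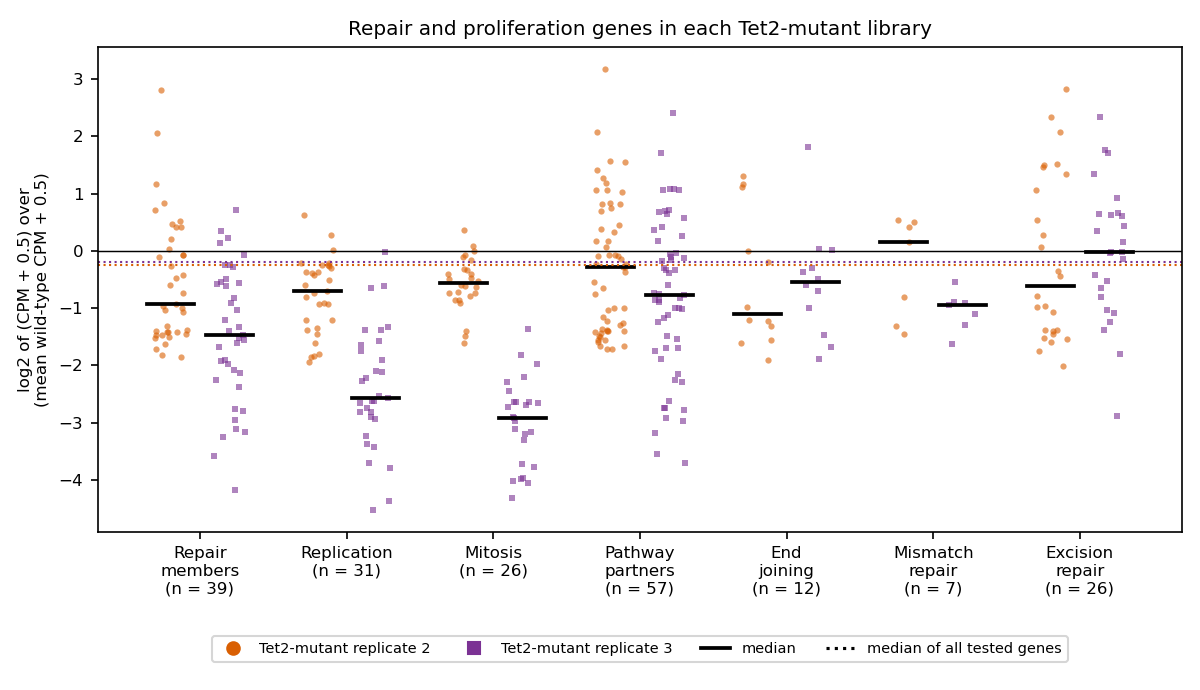
Log2 of (CPM + 0.5) in each Tet2-mutant library over (mean wild-type CPM + 0.5) for the 39 repair members and for 6 comparison lists; points are genes, circles are Tet2-mutant replicate 2, squares are replicate 3, bars are list medians and dotted lines are the medians of all genes tested. Replication and mitosis genes are much lower in replicate 3 (medians -2.58 and -2.91) than in replicate 2 (-0.69 and -0.56), while the members are nearer to each other (-1.47 and -0.92).

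To test each member against the proliferation genes directly, every library was scaled by its summed counts over the 57 genes and the fit repeated. Relative to them, 3 members were higher in the Tet2-mutant libraries and 0 were lower, where 34.5% of all genes tested were higher and 1.38% were lower. The 3 were Atm (3.43 ± 0.78, adjusted p = 0.0160), Ercc4 (2.65 ± 0.63, adjusted p = 0.0176) and Palb2 (2.33 ± 0.69, adjusted p = 0.0306, edgeR). These are 7.69% of the members, a smaller share than that of all genes tested. Relative log2 fold changes were positive for 29 of the 39, with a median of 0.63, against 1.74 over all genes tested. All 6 genes that fell in the first fit were uncalled here, so their difference from the proliferation genes was not detectable with these samples. When any wild-type library was left out, 0 members were called in this fit. The share of all genes called there is not given, so this 0 is not a result particular to the members. Without Tet2-mutant replicate 2, 23 were higher (66.2% of genes tested) and 3 lower (Brca2, Rad51ap1 and Fancd2, 6.06% of genes tested). Without Tet2-mutant replicate 3, 7 were higher (26.2% of genes tested) and 3 lower (Bard1, Recql4 and Chek1, 1.45% of genes tested).

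Other repair genes were read from lists of the pathway's partners and of the other repair routes. Of 57 partner genes, 8 fell and 4 rose (median log2 fold change -0.31). Topbp1, the activator of ATR, had 34.5 and 18.5 CPM in the mutant libraries, against 99.2, 85.5 and 91.5 CPM in wild type (-1.80 ± 0.35, adjusted p = 0.0220). Zswim7, a subunit of the Shu complex of homologous recombination, had 37.6 and 21.9 CPM in the mutant libraries, against 3.002, 3.72 and 4.39 CPM in wild type (3.002 ± 0.46, adjusted p = 0.0104). Rad1, a subunit of the checkpoint clamp, had 60.8 and 83.0 CPM in the mutant libraries, against 21.4, 27.3 and 25.8 CPM in wild type (1.53 ± 0.30, adjusted p = 0.0225, edgeR). Both mutant libraries lay outside the wild-type range for all 3 genes. Leaving out any wild-type library took the adjusted p of Topbp1 and of Rad1 above 0.05, and leaving out wild-type replicate 1 did so for Zswim7 (0.0536).

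Of 12 end joining genes 1 fell, Rif1, which shields broken ends from resection, with 17.5 and 11.7 CPM in the mutant libraries, against 42.7, 46.6 and 44.0 CPM in wild type (-1.61 ± 0.35, adjusted p = 0.0298). Of 7 mismatch repair genes 0 were called, and the median log2 fold change was -0.41. Of 26 excision repair genes tested, 2 rose and 1 fell, and the median was 0.09. Xpa, the damage verifier of nucleotide excision repair, had 54.0 and 38.2 CPM in the mutant libraries, against 6.18, 8.07 and 7.23 CPM in wild type (2.68 ± 0.36, adjusted p = 0.00660). Polb, the gap-filling polymerase of base excision repair, had 173 and 111 CPM in the mutant libraries, against 28.9, 37.4 and 34.6 CPM in wild type (2.08 ± 0.29, adjusted p = 0.00740). Xpc, the damage sensor of nucleotide excision repair, fell (-1.30 ± 0.30, adjusted p = 0.0344, edgeR). Xpa and Polb were called with any single library left out, while Rif1 and Xpc were not called when any wild-type library was.

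Markers of the cell types in the samples also differed between libraries. The 10 monocyte markers, none at 0, summed to 29271 and 19075 CPM in the mutant libraries, against 13209 to 14709 CPM in wild type, but Lyz2 alone made up 26901 and 17867 CPM of this in the mutant libraries. The other 9 summed to 2369 and 1207 CPM in the mutant libraries, against 1341 to 1470 CPM in wild type. In that sum replicate 3 was below wild type. Of the 10 monocyte markers, 3 rose and 1, Itgam, fell (-1.38 ± 0.34, adjusted p = 0.0408, edgeR). The median log2 fold change of the 10 was 1.01. The 7 macrophage markers, all of which rose, summed to 5277 and 3855 CPM in the mutant libraries, against 306 to 375 CPM. The 6 markers of neutrophil progenitors, a dividing population, summed to 3561 and 530.2 CPM in the mutant libraries, against 7536 to 9306 CPM in wild type; all 6 were below wild type in both mutant libraries and 0 were called. Mature neutrophil markers summed to 50313 and 22829 CPM in the mutant libraries, against 40480 to 51343 CPM in wild type, in samples labelled as monocytes. Erythroid markers summed to 13547 and 2020 CPM in the mutant libraries, against 6222 to 16073 CPM, and progenitor markers to 298 and 68.3 CPM, against 213 to 283 CPM. By summed CPM, replicate 3 was the lower mutant library for monocyte, macrophage, neutrophil progenitor, mature neutrophil, erythroid, progenitor, and T and NK markers. It was the higher for mature B, pro-B and pre-B, and pancreatic acinar markers. For Brca1, Brca2, Fancd2, Mcm5 and Mki67 replicate 3 was the lower as well. Mature B cell markers summed to 906 and 7005 CPM in the mutant libraries, against 128 to 585 CPM, pro-B and pre-B markers to 37.0 and 52.8 CPM, against 19.2 to 188 CPM, T and NK markers to 982 and 678 CPM, against 59.7 to 146 CPM, and pancreatic acinar markers, of which Amy2a5 was at 0 in every library, to 441 and 1015 CPM, against 39.3 to 55.0 CPM. The part of these differences in cell content in the values of the repair genes was not tested.

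The members with the longest merged exons had different medians in the 2 mutant libraries. Among the 18 members with at least 5997 bases of merged exon, the median of log2 (CPM + 0.5) over wild type was -0.02 in replicate 2 and -1.12 in replicate 3. Among all genes of that length it was -0.28 and -0.32. For the 14 members of the next shorter class, 3633 to 5996 bases, it was -1.42 in replicate 2 and -1.79 in replicate 3, against -0.27 and -0.28 over all genes of that class. The part of exon length in the split of Brca1, Brca2, Fancd2 and Atm between the libraries was not tested.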

How the data were processed

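The authors deposited raw counts per gene symbol, whole and not normalized, as a separate table for each library. Per the labels' protocols, RNA came from RNeasy mini plus columns and went into SMARTer mRNA-Seq libraries. Trimmomatic, STAR and the mm10 build are named per the submitters' processing notes. Read counter, annotation and strand setting are not given in the sources read. No molecular identifiers are named, so amplified reads were treated as counts.

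Statistics used edgeR 4.0.16 in R 4.3.3. After filterByExpr, which left 17062 genes, and TMM scaling, glmQLFit and glmQLFTest compared the genotypes over all 5 libraries with no covariate. Benjamini-Hochberg adjustment ran over all genes tested, with 0.05 as the threshold for a call. Each SE was obtained as the size of the log2 fold change over the square root of its F. The spread was wide (common biological coefficient of variation 0.507). For the fit relative to proliferation genes, library sizes were replaced by summed counts over the replication and mitosis lists. Values for single mutant libraries have no replicate check and use a pseudocount of 0.5 CPM. Exon lengths, positions and overlaps come from GENCODE M21 (GRCm38, the build that mm10 names) and promoters from RefSeq (GRCm38.p6).

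The members and lists were chosen with earlier results of these data known. All members are named. Values in every library are given for members called in either fit, for a set list of core members, and for others where a statement rests on them; from each other list, up to 3 called genes with the smallest p are named. Alternatives were other scaling, filters, denominators and tests (DESeq2 1.42.0, limma 3.58.1), a replicate block, and each library left out; placement with library totals was added after the data were seen. A gene of the comparison set is not reported here.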

Additional observations from a re-analysis of the deposited data

How the results depend on the processing

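The 6 members that fell were also called lower under library-total, upper-quartile and RLE scaling, with no filter, with a filter of 1 CPM in 3 libraries, with DESeq2 and with limma-voom. The number of members that fell, 6 as reported, was 15 with library totals (16.9% of all genes tested fell there), 13 with upper quartiles (10.8%), 16 with DESeq2 (12.5%), 10 with limma-voom (8%) and 0 to 27 with 1 library left out (0.0371% to 32.2%). The number that rose, 0 as reported, was 2 with no filter (Ercc4 and Atm), 1 with DESeq2 (Atm) and 0 to 5 with 1 library left out. The member median of -0.74 moved to -1.25 with library totals and -1.45 with limma-voom, and lay between -1.55 and -0.55 with 1 library left out. Of the proliferation genes, 9 fell as reported, against 34 with library totals, 26 with upper quartiles, 42 with no filter, 16 with DESeq2, 43 with limma-voom and 1 to 55 with 1 library left out, while their median lay between -2.75 and -0.61. The number of all genes called was 2556, against 4058 with library totals, 4557 with no filter, 5109 with DESeq2 and 622 to 10862 with 1 library left out. Of the called genes 70.5% rose with TMM, 29.1% with library totals and 43.6% with upper quartiles. Relative to proliferation genes, 3 members were higher as reported, against 5 with the replication list alone as denominator, 5 with the geometric mean as denominator and 0 to 23 with 1 library left out, and 0 were lower, against 0 to 3. Values whose sign turned and which were called in either fit came from leaving out Tet2-mutant replicate 2: Brca2 gave -3.80 (1.19 without Tet2-mutant replicate 3), Rad50 gave -0.63 (0.71 without replicate 3), and, relative to proliferation genes, Brca2 gave -1.28 (1.74 without replicate 3) and Fancd2 -2.28 (1.01 without replicate 3). Signs of members called in neither fit also turned, as for Brca2 with library totals (-0.43) and for Brca1 (0.53), Brip1 (0.20) and Fancd2 (0.48) without Tet2-mutant replicate 3. With library totals, an alternative chosen after the data were seen, 1 member was above wild type in both mutant libraries (3 with TMM), 3 were above in replicate 2 and below in replicate 3 (6 with TMM), 5 were above in replicate 2 (10 with TMM) and 1 was above in replicate 3 (3 with TMM). The cause was not tested.

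Replicate numbers 2 and 3 occur in both genotypes, but no label says that they pair samples. Deviations from the genotype means correlated at -0.027 for number 2 and -0.024 for number 3. With 2 mutant libraries their deviations are mirror images, so these values are not separate checks of pairing. With the replicate block, 3 members fell (Rad51ap1, Rad54l and Chek1), where 1.36% of all genes tested did, and 1 of them was shared with the fit without the block. With the block 38 proliferation genes fell, the member median was -1.27 and the number of all genes called was 984. In the fit relative to proliferation genes, 0 members were higher with the block.

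Precision is limited by the gap between the 2 mutant libraries for genes such as Brca1, Brca2 and Fancd2 more than by depth: even 48 counts of Fancd2 gave a counting interval far narrower than that gap.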

Other observations

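Regulators of the cell cycle transcription programme and targets of p53 gave values that belong in none of the comparisons above. Of 30 genes of the E2F programme, which switches on S phase genes, 3 rose and 2 fell, with a median log2 fold change of -0.85. Cdkn1a, an inhibitor of cyclin-dependent kinases and a p53 target, had 100.8 and 47.6 CPM in the Tet2-mutant libraries, against 11.9, 13.9 and 18.3 CPM in wild type (2.33 ± 0.41, adjusted p = 0.0159, edgeR). The cyclins Ccnd1 (14.8 and 58.5 CPM in the Tet2-mutant libraries, against 3.43 to 4.53 CPM in wild type) and Ccnd2 (145 and 355 CPM in the Tet2-mutant libraries, against 52.7 to 71.4 CPM in wild type) also rose (adjusted p = 0.0197 and 0.0215, edgeR). Every one of these calls was lost when wild-type replicate 1 was left out (adjusted p = 0.0540, 0.0905 and 0.0982).

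Of 14 genes tested from a list of p53 itself and its targets other than Cdkn1a, 3 rose and 1 fell, and the median log2 fold change was -0.15. Zmat3, an RNA-binding p53 target, had 12.04 and 5.74 CPM in the Tet2-mutant libraries, against 0.670, 0.977 and 0.816 CPM in wild type (3.43 ± 0.69, adjusted p = 0.0252). Gadd45a, a stress-response gene, had 49.7 and 23.1 CPM in the Tet2-mutant libraries, against 120.1, 137 and 153 CPM in wild type (-1.91 ± 0.38, adjusted p = 0.0238, edgeR).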
